A study of Saccharomyces cerevisiae with 8 samples.

Results

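The genes described here encode the proteins of the large (60S) subunit of the yeast cytosolic ribosome. Members were the rows of the deposited count table whose symbol begins with RPL and a digit, together with RPP0, RPP1A, RPP1B, RPP2A and RPP2B. The RPL22 and RPL9 pairs, 4 genes, were left aside by that rule. It found 77 genes of the 5545 in the table, and all 77 passed the filter on low counts that left 5488 genes tested. They encode 44 proteins, of which 33 have 2 genes (an A and a B copy) and 11 have 1.

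The large subunit holds the peptidyl transferase centre, where amino acids are joined, and the tunnel through which the new chain leaves. A pair of flexible arms rise from it. The first, the acidic stalk, is built on RPP0 and RPL12 and carries P1 and P2 proteins that call elongation factors to the ribosome, and the other, the L1 stalk, meets the tRNA that is leaving. In growing yeast the genes for these proteins are among the most strongly transcribed, and the factors Rap1, Fhl1, Ifh1 and Sfp1 act on them together, with nutrient signals through TOR and Sch9. The polyamine spermidine is a small cation that binds RNA, ribosomes included.

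All libraries came from 1 haploid Saccharomyces cerevisiae strain of genotype MATa ura3-52 leu2, in which LEU2 replaces both SPE1 (written spel in the labels) and SPE2. SPE1 makes putrescine and SPE2 supplies the aminopropyl group for spermidine, so the cells cannot make spermidine and both groups carry the deletions. Cultures were started at an optical density of 0.025, with spermidine added to SD medium at 10 µM or 0 µM, and grew at 30 °C until they had reached 0.6 to 0.7. From each condition, 2 libraries of ribosome footprints (protected RNA of 17 to 34 nucleotides) and 2 of fragmented total RNA were sequenced, 8 in all, to compare translation at high and low polyamine levels. That the replicates came from separate cultures is not stated, so p-values measure the spread between these libraries, which may be technical.

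Gene counts per library summed to between 3324344 and 4272944 for footprints at 10 µM, between 5038682 and 7089928 for footprints at 0 µM, between 1786419 and 1925498 for RNA at 10 µM and between 2525135 and 2884632 for RNA at 0 µM. The 77 genes held between 59739 and 427591 counts per library. SPE1 had 4 to 15 and SPE2 3 to 62 counts in a library. The mating-type a pheromone receptor gene STE2 had 884 to 3186 counts, and STE3, its counterpart in alpha cells, 9 to 24. Levels are CPM, counts scaled to a common composition-adjusted library total, so a change is relative to the typical gene, and a shift of all mRNA or of all footprints cannot be seen. In these bulk libraries fewer cells of a kind and less RNA per cell cannot be told apart.

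With spermidine, most large-subunit protein genes had less RNA, and the median difference in footprints was smaller. RNA fell for 64 of 77 genes, where 13.5% of all genes tested were called lower (p below 0.05 after Benjamini-Hochberg adjustment over all genes in edgeR's quasi-likelihood test, as for every call here). The median log2 change in RNA was -0.64 over the 77 genes and 0.0016 over all genes. Footprints fell for 41 genes and rose for 3, against 19.8% and 18.7% of all genes called in those directions. Their median log2 change was -0.35, beside -0.02 over all genes. Each of the 41 genes with lower footprints was also called lower in RNA, and 20 genes were called lower in RNA with no call in footprints or efficiency.

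No member was called higher in RNA (0 of 77, and 0 at an unadjusted p below 0.05, with edgeR, and 0 with DESeq2 or limma voom), where 8.45% of all genes were. RNA libraries at 10 µM lay below both at 0 µM for 73 genes and above them for 1, RPL8A, where 31.6% and 28.6% of all genes did so. In footprints 54 genes lay below and 10 above, where 37.4% and 35.3% of all genes did so. The footprint count of 41 was 20 without footprint replicate 2 at 0 µM and 20 without footprint replicate 1 at 10 µM. In every fit with 1 library left out, and with all libraries, 48 genes stayed called lower in RNA and 19 in footprints.

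**Figure D1:**
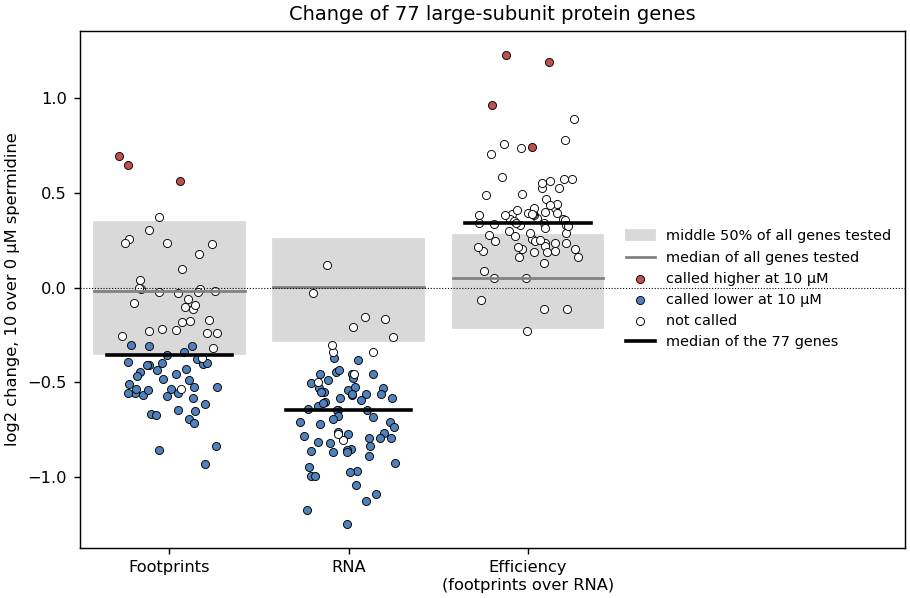
The log2 change (10 over 0 µM spermidine) of each of the 77 genes is plotted for footprints, RNA and efficiency, coloured by call, with the median of the 77 genes and the median and quartiles of all 5488 genes tested. The median of the 77 genes lies at -0.35 in footprints, -0.64 in RNA and 0.34 in efficiency.

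Added over the 77 genes, footprints stood at 46976 and 50012 CPM at 10 µM, against 58861 and 60856 CPM at 0 µM. The summed RNA level was 33483 and 30648 CPM at 10 µM, against 53288 and 48070 CPM at 0 µM. The groups did not overlap in either assay, and the fall was larger in RNA, with log2 ratios of the group means of -0.30 for footprints and -0.66 for RNA. With 2 libraries against 2 these sums were not tested. Small-subunit (RPS) genes had similar counts: without the RPS22 pair, 48 of 54 fell in RNA and 29 in footprints, with medians of -0.62 and -0.36. The summed large-subunit level over the summed small-subunit level was 1.37 ± 0.0082 at 10 µM and 1.42 ± 0.028 at 0 µM in RNA, and 1.45 ± 0.023 at 10 µM and 1.47 ± 0.016 at 0 µM in footprints (SD, n = 2). Of 34 large-subunit genes of the mitochondrial ribosome, 2 rose and 1 fell in RNA (median 0.0006), and 7 rose and 0 fell in footprints (median 0.14; 0 lower at an unadjusted p below 0.05 in edgeR). The 7 rises, 20.6% of the mitochondrial genes, were near the 18.7% of all genes called higher in footprints, where 19.8% were called lower. The RNA calls were below the shares over all genes, 8.45% higher and 13.5% lower.

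Translational efficiency, the footprint level over the RNA level, was the difference between the footprint and RNA changes. Its estimate was positive for 73 of 77 genes, where 55.4% of all genes had a positive estimate, and the median was 0.34, beside 0.05 over all genes. Small-subunit genes, again without the RPS22 pair, were similar, with 49 of 54 estimates positive, a median of 0.31 and 4 called higher. Few of the large-subunit differences passed the test alone: efficiency rose for 4 genes, RPP2B, RPL1B, RPL12A and RPL12B, where 0.893% of all genes were called higher. Efficiency was called lower for 0 members with edgeR, where 0.893% of all genes were (0 at an unadjusted p below 0.05, and 0 with DESeq2 or limma voom). At an unadjusted p below 0.05 in edgeR, 38 members were higher, where 579 of all 5488 genes were higher and 435 lower. RPL7A (-0.23), RPL6A (-0.11), RPL11A (-0.11) and RPL35B (-0.06) were the 4 genes with a negative estimate. The 4 calls rested on few libraries: 0 of them remained without RNA replicate 2 or either footprint replicate at 10 µM, although without footprint replicate 1 at 10 µM RPL42A was called instead. RPL12A alone remained without RNA replicate 1 at 10 µM or footprint replicate 2 at 0 µM. Leaving out footprint replicate 1 at 0 µM left 2 calls, RPP2B and RPL1B, and leaving out RNA replicate 2 at 0 µM gave 7, the same 4 with RPP0, RPP1A and RPL42A.

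**Figure D2:**
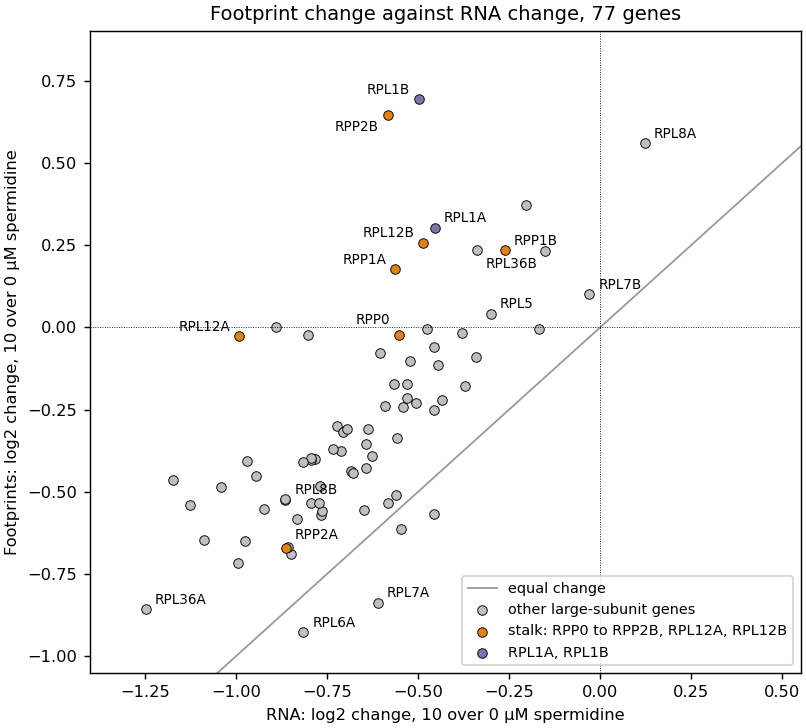
Each of the 77 genes is placed by its RNA change (horizontal) and its footprint change (vertical), both as log2 of 10 over 0 µM spermidine; the line marks equal change. All but 4 genes lie above the line. RPP2B, RPL1B, RPL12A and RPL12B, called higher in efficiency, lie far above it, as do RPL42A, RPL41A, RPL1A and RPP1A, which were not called.

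At the acidic stalk, RNA fell while footprints were mostly not called. Of 7 stalk genes, 6 fell in RNA (median log2 change -0.56), 1 rose and 1 fell in footprints (median 0.18) and 3 rose in efficiency (median 0.74). Over all genes, 13.5% were called lower in RNA, 18.7% higher and 19.8% lower in footprints, and 0.893% higher in efficiency. RPP0 (YLR340W; chromosome XII, 805887 to 806825 in the R64 assembly), the protein at the foot of the stalk, had 2573 and 2566 CPM of footprints at 10 µM, against 2640 and 2585 CPM at 0 µM. Its RNA was 1192 and 1185 CPM at 10 µM, against 1904 and 1583 CPM at 0 µM. RPP0 RNA thus fell (log2 change -0.55, SE 0.10, edgeR adjusted p = 0.0044), while the footprint difference of -0.02 was not called (SE 0.10, edgeR adjusted p = 0.87). The efficiency difference of RPP0 was 0.53 (SE 0.14, edgeR adjusted p = 0.10).

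P1 and P2 bind the ribosome as heterodimers, RPP1A with RPP2B and RPP1B with RPP2A. RPP2B (YDR382W; chromosome IV, 1239492 to 1239824) had 482 and 509 CPM of footprints at 10 µM, against 342 and 291 CPM at 0 µM, so the libraries with spermidine were both higher (log2 change 0.65, SE 0.15, edgeR adjusted p = 0.0084). In RNA it went the other way, with 277 and 249 CPM at 10 µM, against 458 and 331 CPM at 0 µM (log2 change -0.58, SE 0.16, edgeR adjusted p = 0.026). RPP2B footprints over RNA were 1.74 and 2.04 at 10 µM, against 0.747 and 0.880 at 0 µM, the largest efficiency change of the 77 genes (log2 1.23, SE 0.22, edgeR adjusted p = 0.028). No pair of libraries overlapped between the conditions in either assay or in the ratio. When each of the 8 libraries was omitted in turn, the efficiency call was lost 5 times, with values between 1.01 and 1.47 and adjusted p up to 0.13. Leaving out footprint replicate 2 at 0 µM also ended the footprint call (largest adjusted p 0.061), and leaving out RNA replicate 1 at 0 µM or either RNA replicate at 10 µM ended the RNA call (values from -0.80 to -0.33, largest adjusted p 0.15).

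RPP2A (YOL039W; chromosome XV, 254297 to 254617), the other P2 gene, fell in both assays. Its footprints were 624 and 702 CPM at 10 µM, against 1022 and 1092 CPM at 0 µM (log2 change -0.67, SE 0.10, edgeR adjusted p = 0.00092). RPP2A RNA stood at 467 and 417 CPM at 10 µM, against 811 and 797 CPM at 0 µM (log2 change -0.86, SE 0.10, edgeR adjusted p = 0.00062). Its efficiency difference was 0.19 (SE 0.15, edgeR adjusted p = 0.52). RPP2A thus supplied 57.2 ± 1.1% of the P2 footprint counts at 10 µM and 76.9 ± 2.9% at 0 µM, while its share of P2 RNA counts was 62.7 ± 0.16% at 10 µM and 67.3 ± 4.8% at 0 µM (SD, n = 2). The P1 genes had smaller footprint differences. RPP1A had 733 and 755 CPM of footprints at 10 µM, against 699 and 618 CPM at 0 µM (0.18, SE 0.14, edgeR adjusted p = 0.33), with an RNA fall of 0.56 in log2 units (edgeR adjusted p = 0.017). That RNA call was lost without RNA replicate 1 at 0 µM or RNA replicate 2 at 10 µM (largest adjusted p 0.12). RPP1B differed by 0.23 in footprints and by -0.26 in RNA, neither called (edgeR adjusted p = 0.12 and 0.13).

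RPL12, which sits at the stalk base beside RPP0, is made from RPL12A (YEL054C) and RPL12B (YDR418W). RPL12A had 395 and 409 CPM of footprints at 10 µM, against 394 and 426 CPM at 0 µM, and these groups overlapped. Its RNA was 281 and 251 CPM at 10 µM, against 552 and 505 CPM at 0 µM, a clear fall (log2 change -0.99, SE 0.11, edgeR adjusted p = 0.00036). RPL12A efficiency therefore rose by 0.96 on the log2 scale (SE 0.15, edgeR adjusted p = 0.016). RPL12B footprints were 698 and 665 CPM at 10 µM, against 553 and 587 CPM at 0 µM, a difference just outside the threshold (0.26, SE 0.09, edgeR adjusted p = 0.051). In RNA, RPL12B stood at 461 and 466 CPM at 10 µM, against 674 and 623 CPM at 0 µM (-0.49, SE 0.09, edgeR adjusted p = 0.0057), and its efficiency rose by 0.74 (SE 0.13, edgeR adjusted p = 0.028). Both copies of RPL12 thus had more footprints per RNA with spermidine. The efficiency call was lost in 4 of 8 single-library omissions for RPL12A (0.89 to 1.05, largest adjusted p 0.078) and in 6 for RPL12B (0.70 to 0.83, largest adjusted p 0.11).

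Genes of elongation factors can be set beside those of the stalk. YEF3, elongation factor 3, had 5286 and 5290 CPM of footprints at 10 µM, against 8729 and 8672 CPM at 0 µM, a fall (log2 change -0.72, edgeR adjusted p = 0.00029). YEF3 RNA changed by a similar amount, -0.70 in log2 units. TEF1, a gene for elongation factor 1A, fell by 0.40 in footprints and by 0.88 in RNA in log2 units (edgeR adjusted p = 0.020 and 0.0011). TEF1 and TEF2 are near-identical, as are EFT1 and EFT2 for elongation factor 2, so their own values are uncertain. In all, 2 of these 5 genes fell in footprints (median -0.21) and 3 in RNA (median -0.53), where 19.8% and 13.5% of all genes were called lower. These calls were not re-examined with libraries left out.

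At the L1 stalk, RPL1B (YGL135W; chromosome VII, 254641 to 255294) had 129 and 147 CPM of footprints at 10 µM, against 94.7 and 76.3 CPM at 0 µM. Its RNA was 103 and 99.5 CPM at 10 µM, against 164 and 122 CPM at 0 µM. Footprints rose (log2 change 0.69, SE 0.16, edgeR adjusted p = 0.0074), the RNA difference of -0.50 did not pass (SE 0.17, edgeR adjusted p = 0.062), and efficiency rose by 1.19 (SE 0.23, edgeR adjusted p = 0.039). RPL1A, the other copy, showed differences of 0.30 in footprints, -0.45 in RNA and 0.76 in efficiency, none called (edgeR adjusted p = 0.11, 0.060 and 0.10). With the counts of both copies added before the fit, RPL1 rose in footprints (0.54, edgeR adjusted p = 0.0090) and in efficiency (1.03, edgeR adjusted p = 0.032) and fell in RNA (-0.49, edgeR adjusted p = 0.028). RPL12 in that fit again rose in efficiency (0.84, edgeR adjusted p = 0.017), while P2, with RPP2A and RPP2B added, differed by 0.53 (edgeR adjusted p = 0.10). RPL1B lost its footprint call without footprint replicate 2 at 0 µM or at 10 µM (largest adjusted p 0.055) and its efficiency call in 6 of 8 omissions (0.99 to 1.42, largest adjusted p 0.15). RPL1 counts were low for its length, as described below, and whether reads common to both copies were counted is not given in the sources used here.

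**Figure D3:**
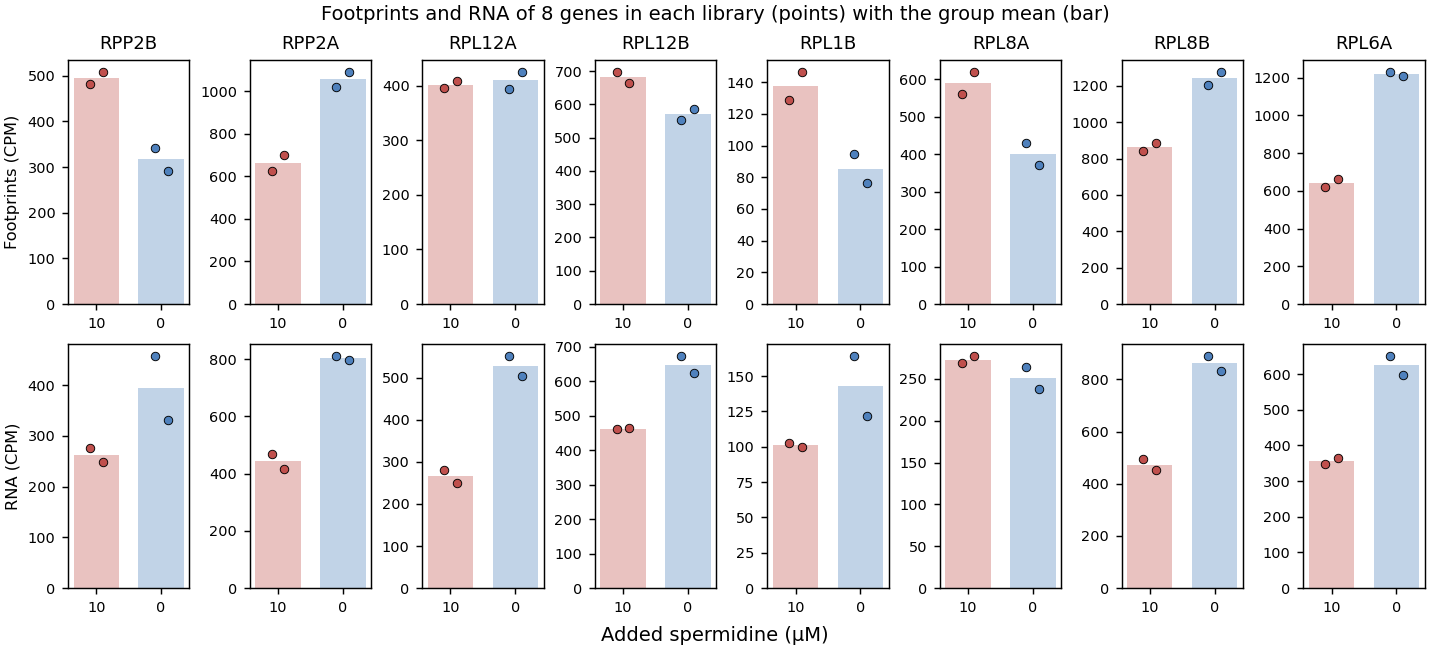
Footprints (upper row) and RNA (lower row) of 8 genes are shown in CPM for each library (points) with the group mean (bars), 10 µM spermidine left of 0 µM. RPP2B, RPL1B and RPL8A are higher at 10 µM in both footprint libraries, while RPP2A, RPL8B and RPL6A are lower.

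Genes for proteins of the catalytic core fell in both assays, with medians near those of all 77 genes (-0.35 in footprints and -0.64 in RNA). Around the peptidyl transferase centre, RPL2A, RPL2B, RPL3 and RPL10, 4 of 4, fell in footprints (median -0.35) and in RNA (median -0.67). The shares called lower were 53.2% and 83.1% over the 77 genes, and 19.8% and 13.5% over all genes tested. RPL3 (YOR063W; chromosome XV, 444686 to 445849), which reaches towards the centre, had 3435 and 3758 CPM of footprints at 10 µM, against 4331 and 4582 CPM at 0 µM (log2 change -0.31, SE 0.10, edgeR adjusted p = 0.030). Its RNA was 1404 and 1485 CPM at 10 µM, against 2367 and 2129 CPM at 0 µM (-0.64, SE 0.10, edgeR adjusted p = 0.0017). The RPL3 footprint call did not survive the omission of any of the 4 footprint libraries (-0.38 to -0.24, largest adjusted p 0.21) or DESeq2, and the same held for RPL2A (-0.32 to -0.28, largest adjusted p 0.12). RPL10 (YLR075W), among the last proteins to join the subunit, had 2096 and 2440 CPM of footprints at 10 µM, against 2929 and 3024 CPM at 0 µM (-0.39, SE 0.10, edgeR adjusted p = 0.015). That call needed both footprint replicates at 0 µM and the first at 10 µM (-0.51 to -0.29, largest adjusted p 0.14). RPL10 RNA fell by 0.63 in log2 units (edgeR adjusted p = 0.0027).

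In the 5S particle, RPL5 and RPL11 bind 5S rRNA, and 1 of their 3 genes fell in each assay (median log2 changes -0.01 in footprints and -0.30 in RNA). Over all genes, 19.8% were called lower in footprints and 13.5% in RNA. RPL5 (YPL131W; chromosome XVI, 303121 to 304014) had 2333 and 2425 CPM of footprints at 10 µM, against 2303 and 2319 CPM at 0 µM, a difference of 0.04 (SE 0.10, edgeR adjusted p = 0.77). Its RNA was 1125 and 1005 CPM at 10 µM, against 1391 and 1232 CPM at 0 µM (-0.30, SE 0.10, edgeR adjusted p = 0.059), the single-copy gene with the smallest RNA difference and the only 1 of the 11 not called in RNA. RPL11A fell in footprints (-0.57, edgeR adjusted p = 0.0032) and RNA (-0.46, edgeR adjusted p = 0.020), while RPL11B differed by -0.01 and -0.17 (edgeR adjusted p = 0.98 and 0.29). RPL11A lost its RNA call without RNA replicate 1 at 0 µM or either RNA replicate at 10 µM (-0.58 to -0.33, largest adjusted p 0.10), with DESeq2 and with each assay fitted alone.

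Among 14 genes for proteins that line the peptide tunnel or ring its exit, 8 fell in footprints and 13 in RNA, with medians of -0.37 and -0.56. These were 57.1% and 92.9% of the list, close to the 53.2% and 83.1% of all 77 genes. Of all genes tested, 19.8% were called lower in footprints and 13.5% in RNA. RPL25 at the tunnel exit, where the signal recognition particle docks, had 1131 and 1227 CPM of footprints at 10 µM, against 1333 and 1326 CPM at 0 µM (-0.17, SE 0.11, edgeR adjusted p = 0.23). Its RNA fell by 0.53 in log2 units (edgeR adjusted p = 0.0071), a call lost without RNA replicate 2 at 10 µM (-0.65 to -0.42, largest adjusted p 0.062). RPL39, a small tunnel protein, fell in RNA (-0.59, edgeR adjusted p = 0.0032), with a footprint difference of -0.24 (edgeR adjusted p = 0.086). RPL19B, at the exit rim, fell in footprints to 734 ± 25 CPM at 10 µM, against 1185 ± 108 CPM at 0 µM (SD, n = 2; -0.69, edgeR adjusted p = 0.00066). RPL4B (0.23 in footprints, -0.15 in RNA) was the tunnel gene furthest from this pattern and was called in neither assay (edgeR adjusted p = 0.21 and 0.53).

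For the 11 single-copy genes, reads have no second copy to match. Of these, 10 fell in RNA (median -0.55) and 4, RPL3, RPL10, RPL28 and RPL38, in footprints (median -0.18). Among all genes tested, 13.5% were called lower in RNA and 19.8% in footprints. RPL28, long known as the site of cycloheximide resistance mutations, had 1275 and 1277 CPM of footprints at 10 µM, against 1697 and 1772 CPM at 0 µM (-0.44, SE 0.10, edgeR adjusted p = 0.0080). RPL38 stood at 584 and 630 CPM of footprints at 10 µM, against 772 and 839 CPM at 0 µM (-0.41, SE 0.10, edgeR adjusted p = 0.012). The RPL28 and RPL38 footprint calls were lost without footprint replicate 2 at 0 µM or footprint replicate 1 at 10 µM (largest adjusted p 0.073 and 0.12). RPL38 also fell in RNA (-0.82, edgeR adjusted p = 0.00079), the largest RNA fall of a single-copy gene.

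RPL30, whose protein blocks the splicing of its own transcript, had 748 and 784 CPM of footprints at 10 µM, against 759 and 780 CPM at 0 µM, with overlapping groups. RPL30 RNA was 1133 and 840 CPM at 10 µM, against 1463 and 1281 CPM at 0 µM (-0.48, SE 0.14, edgeR adjusted p = 0.035). That call was lost in 6 of 8 omissions (-0.71 to -0.28, largest adjusted p 0.19), with DESeq2 size factors, with library totals alone and with each assay fitted alone. RPL32 fell in RNA (-0.46, edgeR adjusted p = 0.012; -0.59 to -0.34 over omissions, not called without RNA replicate 2 at 10 µM or with each assay fitted alone, largest adjusted p 0.094) and differed by -0.06 in footprints. RPL29, not needed for growth, fell in RNA (-0.37, edgeR adjusted p = 0.039), a call kept in 1 of 8 omissions (-0.45 to -0.30, largest adjusted p 0.19) and lost with DESeq2, its size factors, library totals alone and each assay fitted alone.

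The RPL40 genes encode the subunit protein as a fusion to ubiquitin. RPL40A fell in RNA to 760 ± 51 CPM at 10 µM, against 1488 ± 111 CPM at 0 µM (SD, n = 2; -0.97, edgeR adjusted p = 0.00071), and RPL40B fell by 0.94 in log2 units (edgeR adjusted p = 0.00064). In footprints both fell by less, with log2 changes of -0.41 and -0.45 (edgeR adjusted p = 0.024 and 0.011). The footprint calls were lost in 3 omissions for RPL40A (-0.58 to -0.26, largest adjusted p 0.19) and in 2 for RPL40B (-0.53 to -0.35, largest adjusted p 0.12), footprint replicate 2 at 0 µM and replicate 1 at 10 µM among them. RPL42, a neighbour of the tRNA exit site, had RNA falls of 0.89 for RPL42A and 1.17 for RPL42B in log2 units (edgeR adjusted p = 0.0018 and 0.00054). Its RPL42A footprints were 152 and 195 CPM at 10 µM, against 177 and 170 CPM at 0 µM, with overlapping groups, and the efficiency difference of 0.89 lay just outside the threshold (SE 0.19, edgeR adjusted p = 0.051). Over the 17 genes whose protein is not needed for growth, which include the P1, P2 and RPL12 genes, 6 fell and 1 rose in footprints (median -0.24) and 14 fell in RNA (median -0.68). The RNA share, 82.4%, was close to the 83.1% of all 77 genes. Of all genes tested, 19.8% were called lower and 18.7% higher in footprints, and 13.5% lower in RNA.

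In the whole set, the 6 largest RNA falls were in RPL36A (-1.25), RPL42B (-1.17), RPL18B (-1.13), RPL23A (-1.09), RPL37B (-1.04) and RPL43A (-0.99), and each of these calls held in all 8 single-library omissions. The largest footprint falls were in RPL6A (-0.93), RPL36A (-0.86), RPL7A (-0.84), RPL43A (-0.72), RPL19B (-0.69) and RPP2A (-0.67), which also held in all 8. RPL6A (YML073C; chromosome XIII, 123227 to 124172) had 618 and 665 CPM of footprints at 10 µM, against 1231 and 1209 CPM at 0 µM. Its RNA was 347 and 364 CPM at 10 µM, against 651 and 599 CPM at 0 µM. The fall in RPL6A was nearly as large in RNA (-0.81, SE 0.10, edgeR adjusted p = 0.00055) as in footprints (-0.93, SE 0.09, edgeR adjusted p = 1.0e-04), unlike the typical member. RPL7A had 476 and 520 CPM of footprints at 10 µM, against 874 and 905 CPM at 0 µM (-0.84, edgeR adjusted p = 0.00016). Its RNA fell by less (-0.61, edgeR adjusted p = 0.0019). The efficiency estimates of RPL6A (-0.11) and RPL7A (-0.23) were not called (edgeR adjusted p = 0.71 and 0.41). The annotation places the snoRNA SNR39 within RPL7A and SNR59 within RPL7B, and whether their reads entered the gene counts is not given in the sources used here.

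The copies of a duplicated protein often differed in their changes. Both copies fell in RNA for 23 of 33 proteins and in footprints for 11. A single copy fell in RNA for 8 and in footprints for 13. The median absolute difference between the copies' log2 changes stood at 0.31 in footprints, 0.27 in RNA and 0.15 in efficiency, and it passed 0.5 for 8 proteins in footprints, 6 in RNA and 2 in efficiency. In footprints 6 proteins, and in RNA 2, had no copy called. These differences between copies were not tested, and reads that match both copies may have been divided or dropped. Copies were called in opposite directions in footprints for RPP2 and RPL8.

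RPL8A (YHL033C; chromosome VIII, 35255 to 36025) had 560 and 620 CPM of footprints at 10 µM, against 429 and 372 CPM at 0 µM (log2 change 0.56, SE 0.11, edgeR adjusted p = 0.0036). RPL8A RNA was 268 and 278 CPM at 10 µM, against 264 and 238 CPM at 0 µM, the sole member whose RNA estimate was positive (0.12, SE 0.12, edgeR adjusted p = 0.50). RPL8B (YLL045C; chromosome XII, 47859 to 48629) had 845 and 885 CPM of footprints at 10 µM, against 1206 and 1278 CPM at 0 µM (-0.52, SE 0.09, edgeR adjusted p = 0.0023). Its RNA was 495 and 451 CPM at 10 µM, against 890 and 833 CPM at 0 µM (-0.86, SE 0.10, edgeR adjusted p = 0.00046). The A copy therefore held 40.5 ± 0.93% of RPL8 footprint counts at 10 µM and 24.4 ± 2.6% at 0 µM, and 36.6 ± 2.1% of RNA counts at 10 µM and 22.5 ± 0.44% at 0 µM (SD, n = 2). Both footprint calls held in all 8 single-library omissions. Efficiency estimates of the copies were close, 0.44 for RPL8A and 0.34 for RPL8B (edgeR adjusted p = 0.19 and 0.22), so the copies parted in RNA and footprints together, whereas the P2 genes parted in footprints with nearer RNA values.

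After RPP2, the widest gap between copies in footprints was that of RPL36. RPL36A (YMR194W) had 158 and 194 CPM at 10 µM, against 317 and 321 CPM at 0 µM (log2 change -0.86, SE 0.13, edgeR adjusted p = 0.00095). RPL36B (YPL249C-A) had 400 and 461 CPM of footprints at 10 µM, against 346 and 386 CPM at 0 µM (0.24, SE 0.12, edgeR adjusted p = 0.15). The RPL36A share of RPL36 footprint counts was 28.9 ± 0.96% at 10 µM and 46.6 ± 1.7% at 0 µM (SD, n = 2). Its share of RNA counts was 42.3 ± 0.53% at 10 µM and 57.8 ± 1.0% at 0 µM. After RPL8, whose gap was close to that of RPL36, RPL7 and RPL15 followed, with footprint changes of -0.84 for RPL7A beside 0.10 for RPL7B, and of -0.30 for RPL15A beside 0.37 for RPL15B. In both the A copy is the main gene, and the B copy was not called (edgeR adjusted p = 0.57 and 0.070).

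With copies added, CPM of the 44 proteins were lower at 10 µM for all 44 in RNA, by log2 ratios from -1.04 (RPL42) to -0.30 (RPL5), and for 40 in footprints, from -0.75 (RPL6) to 0.54 (RPL1). A fit on such added counts called 41 of 44 lower in RNA, 23 lower and 1 higher in footprints, and 2, RPL1 and RPL12, higher in efficiency.

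**Figure D4:**
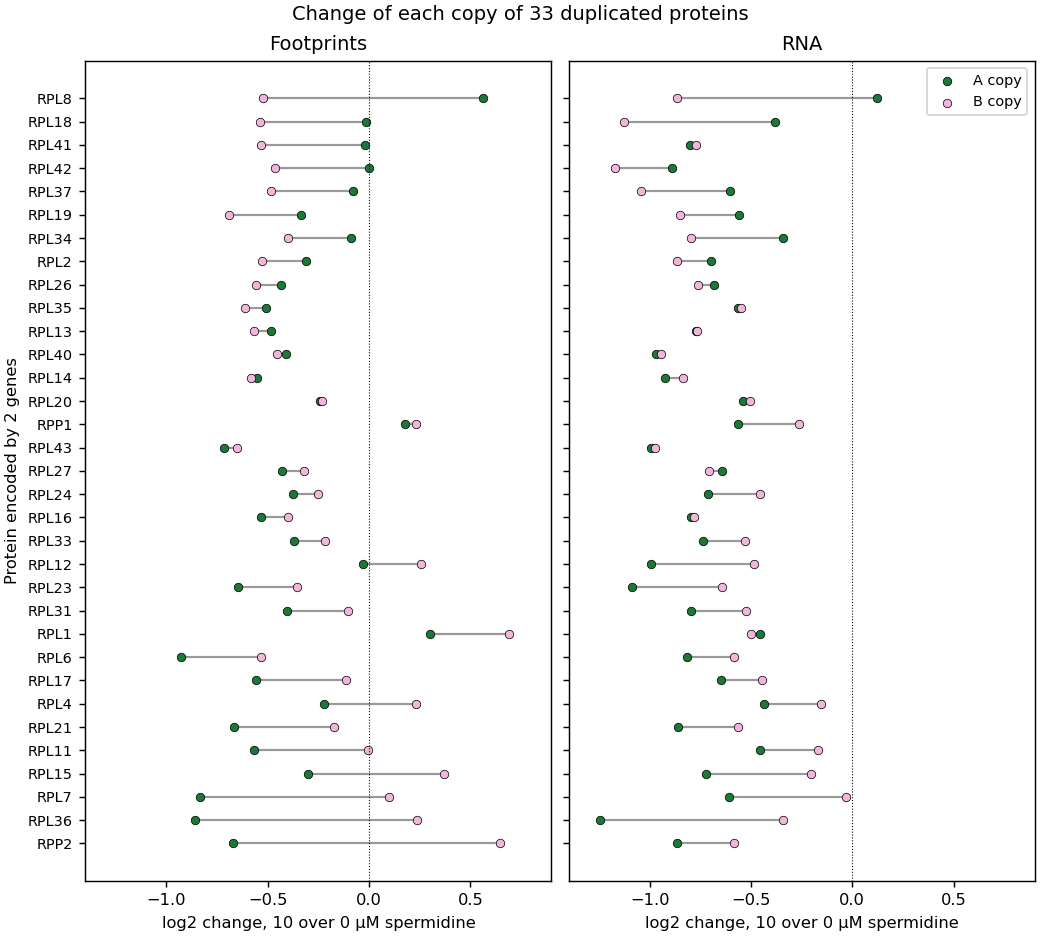
The log2 change (10 over 0 µM spermidine) of the A copy (green) and the B copy (pink) of 33 duplicated proteins is shown for footprints (left) and RNA (right), ordered by the difference between copies in footprints. The longest lines in footprints belong to RPP2, RPL36 and RPL8, and in RNA to RPL8 and RPL36.

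Levels of different proteins can be compared per length where no intron interrupts the coding region, which holds for 16 of the 44 proteins with all their copies. The 7 single-copy proteins among them had footprints of 2562 to 3654 CPM per kilobase of coding length at 10 µM and 2585 to 4469 at 0 µM. At 10 µM RPL32 was highest, at 3654 ± 20 CPM per kilobase, and RPL38 lowest, at 2562 ± 136 (SD, n = 2), with RPL5 at 2661 ± 73 and RPP0 at 2736 ± 5.2 not clearly apart from it. RPL10, at 3405 ± 365, was not clearly apart from RPL32. P2, of which a ribosome carries more copies than of other proteins, had 3553 ± 230 at 10 µM and 4243 ± 48 at 0 µM, within the range of the single-copy proteins. RNA per kilobase spread more widely over the 7, from 1191 to 3164 at 10 µM and from 1467 to 4345 at 0 µM.

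Some duplicated proteins stood far below that range. Footprints of RPL1 were 323 ± 31 CPM per kilobase at 10 µM and 222 ± 6.4 at 0 µM, and those of RPL4 were 376 ± 40 at 10 µM and 399 ± 14 at 0 µM (SD, n = 2). RPL11 had 865 ± 14 at 10 µM and 1093 ± 38 at 0 µM, and RPL41, a peptide of very short coding length, 153 ± 23 at 10 µM and 178 ± 58 at 0 µM. The RNA of these proteins was low as well, for RPL1 at 248 ± 10 at 10 µM and 347 ± 56 at 0 µM. By general knowledge the copies of RPL1, RPL4, RPL11 and RPL41 are near-identical in coding sequence, but their identity, and that of other pairs, was not computed here. Whether reads that match both were dropped was not tested, and the changes given for these genes rest on the reads that were counted, down to 11 in a library for RPL41B.

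**Figure D5:**
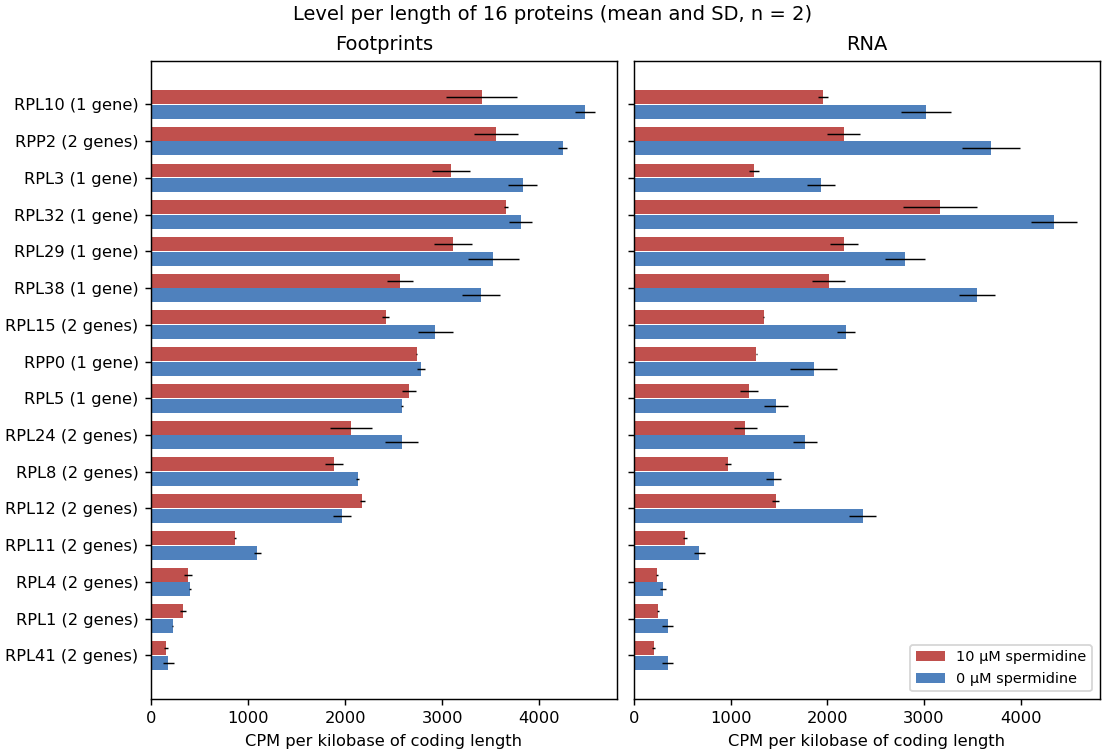
Footprints (left) and RNA (right) per kilobase of coding length are shown for the 16 proteins whose genes have no intron in the coding region, with copies added, as the mean and SD of 2 libraries at 10 µM and at 0 µM spermidine. RPL11, RPL4, RPL1 and RPL41 lie far below the single-copy proteins in both assays. RPL8 also lies below them, though its RNA at 0 µM (1443) is close to that of RPL5 (1467).

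The ratio of footprints to RNA, in which gene length cancels, had a median over the 77 genes of 1.518 at 10 µM and 1.197 at 0 µM, beside 1.04 and 1.02 over all genes at those concentrations. At 10 µM it ran from 0.528 for RPL41B to 2.73 for RPL15B, and at 0 µM from 0.442 for RPL41B to 2.05 for RPL7A. Across the 77 genes, the footprint and RNA changes had a Pearson r of 0.675, against 0.622 over all 5488 genes; genes of 1 set of libraries are not independent.

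Genes that control or serve large-subunit proteins also fell in part. Of 12 regulators of ribosomal protein genes, 8 fell in footprints (median -0.39) and 6 in RNA (median -0.29), where 19.8% and 13.5% of all genes were called lower. IFH1, the coactivator that Fhl1 recruits to these promoters, had lower footprints, with 61.4 and 54.6 CPM at 10 µM, against 90.5 and 105 CPM at 0 µM (log2 change -0.76, edgeR adjusted p = 0.0012), with an RNA difference of -0.22 that was not called (edgeR adjusted p = 0.24). SFP1, an activator of ribosome genes, fell by 0.69 in footprints and 0.44 in RNA in log2 units (edgeR adjusted p = 0.0023 and 0.041). SCH9, the kinase downstream of TOR, fell by 0.60 in footprints and 0.54 in RNA (edgeR adjusted p = 0.0049 and 0.019). DOT6, a repressor of ribosome biogenesis genes, fell by 0.57 in footprints (edgeR adjusted p = 0.0052), so members with opposite roles moved the same way. RAP1 fell by 0.58 and HMO1 by 0.51 in RNA (edgeR adjusted p = 0.0053 and 0.0067). The calls on these regulators were not re-examined with libraries left out.

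Dedicated chaperones guard single ribosomal proteins before assembly. RRB1, which binds Rpl3, fell by 0.79 in footprints and 0.41 in RNA in log2 units (edgeR adjusted p = 0.00091 and 0.044). SQT1, which binds Rpl10, fell by 0.49 in footprints and 0.47 in RNA (edgeR adjusted p = 0.0040 and 0.013). ACL4, SYO1 and BCP1, for Rpl4, for Rpl5 with Rpl11, and for Rpl23, were not called in either assay, which leaves 2 of 5 lower in each. Of 15 factors of late 60S maturation, 6 fell in footprints (median -0.37) and 4 in RNA (median -0.23). Over all genes, 19.8% were called lower in footprints and 13.5% in RNA. TIF6, which keeps the immature subunit from joining the small subunit, fell by 0.67 in footprints and 0.83 in RNA (edgeR adjusted p = 0.0012 and 0.0012). RLP24, the placeholder for Rpl24, fell by 0.70 in footprints and 0.81 in RNA (edgeR adjusted p = 0.0033 and 0.0099), and NMD3, the export adaptor, by 0.58 (edgeR adjusted p = 0.0062). ALB1, a partner of the export factor Arx1, fell by 0.55 in footprints (edgeR adjusted p = 0.011). MRT4, the placeholder for RPP0, fell by 1.01 in RNA (edgeR adjusted p = 0.0015), with a footprint difference of -0.34 (edgeR adjusted p = 0.067). Of 5 factors that meet the new chain at the exit, EGD1, a subunit of the nascent polypeptide-associated complex, rose by 0.56 in footprints (edgeR adjusted p = 0.010), and ZUO1, a ribosome-bound chaperone, fell by 0.67 in RNA (edgeR adjusted p = 0.0025). They were the only calls among the 5, 20% in each assay. Over all genes, 18.7% were called higher in footprints and 13.5% lower in RNA. The calls on chaperones, maturation factors and exit factors were not re-examined with libraries left out.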

How the data were processed

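The authors deposited whole-number read counts per gene for 8 libraries, which were used as given; the submitters' processing notes name the builds sacCer3 and R64 and the tools edgeR, cutadapt and Bowtie (1.1.2 and 1.2.2), without their roles. The counted region, strand use and the treatment of reads matching several genes were not given in the sources used here. The smallest count in the table was 1, and 2 of 5545 IDs had no symbol in the RefSeq R64 gene table. The analysis used edgeR 4.0.16 under R 4.3.3: filterByExpr (minimum count 10, minimum total 15), trimmed mean of M values (TMM) scaling, and 1 quasi-likelihood fit with 4 group coefficients and 4 residual degrees of freedom. Its 3 contrasts were footprints, RNA and their difference, each 10 over 0 µM, with calls at a Benjamini-Hochberg adjusted p below 0.05. Standard errors are the log2 change over the root of F. Ratios match libraries by replicate number. Alternatives used DESeq2 1.42.0 and limma 3.58.1. Scripts were tested on simulated data. Within each group, replicates differed beyond sampling noise (chi-square per degree of freedom 5.61 to 10.3 over all genes). The members and lists were chosen with earlier results of these data known. Genes were named by rule: single-copy and stalk genes, the 6 largest called changes per direction, opposite or most unequal copies, extremes per length, and up to 4 called list members with the smallest p; the RPL2, RPL11, RPL15 and RPL40 genes, RPL1A, RPL4B, RPL7B, RPL35B, RPL36B, RPL42A, YEF3, TEF1, EGD1 and ZUO1 were added after their values were seen. Genes without introns in the coding region were listed from general knowledge.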

Additional observations from a re-analysis of the deposited data

How the results depend on the processing

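With 1 library left out at a time, footprints were called lower for 20 to 42 genes and higher for 1 to 5, RNA lower for 50 to 66 and higher for 0, and efficiency higher for 0 to 7 and lower for 0. Summed levels over these omissions ran from -0.35 to -0.26 in footprints and from -0.73 to -0.58 in RNA. Footprints were called higher for 5 genes with a mean count of at least 100 or with limma voom, for 6 with each assay fitted alone and for 8 with a replicate block, against 3 without these changes. Adding copies left 44 features, of which 23 were lower and 1 higher in footprints, 41 lower in RNA and 2 higher in efficiency. Other scalings, filters and tests kept the remaining counts within 1.5 times. Among the 77 genes, no change that was followed through these fits changed sign with a call. Those followed were all efficiency estimates and, in footprints and RNA, the called changes and those of a few other genes. Genes outside the 77, and most uncalled footprint and RNA changes, were not followed. The replicate numbers are not stated to pair libraries: deviations of same-numbered libraries had r of 0.24 in footprints and 0.176 in RNA, and a replicate block within each assay, with 2 residual degrees of freedom, gave 15 efficiency calls, against 4 without it. The median efficiency estimate of the 77 genes ran from 0.26 with library totals to 0.35 with TMM factors computed without ribosomal protein genes. RPL41A and RPL41B had too few counts for their changes to be told from the spread between libraries.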
